A study of Mus musculus with 157 samples.

Results

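Megakaryocyte progenitors (MkP) were compared with long-term haematopoietic stem cells (LT.HSC) for gene expression alone, in 2 separate sets of wild-type mouse libraries. The libraries were chosen by their labels, 8 of the 157 samples of the series. Set 1 held 2 MkP and 2 LT.HSC input libraries of an atlas of 16 blood cell types. Set 2 held 2 MkP and 2 LT.HSC input libraries that serve as the wild-type side of a Mettl3 knockout experiment on 7 cell types. Input libraries are total RNA that was sequenced without the antibody against N6-methyladenosine (m6A) used elsewhere in the series. All 8 are labelled wild type and untreated, with no antibody. Another 4 libraries, 2 of MkP and 2 of LT.HSC labelled Mettl3 -/- and untreated, were compared as well. They belong to the table of set 2 and fed its filter on low values and its estimate of spread, so they had a part in its calls. The labels give no strain, age, sort gate or Cre driver, and do not say whether the 2 libraries of a group came from separate animals. The p-values below rest on a spread shared over all 32 input libraries of the atlas or all 28 of the Mettl3 experiment. Most of these are of other cell types. The spread is taken as equal in all groups, and part of it may be technical.

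LT.HSC are rare, mostly resting cells that can rebuild the whole blood system. MkP are committed precursors that divide, become polyploid and turn into megakaryocytes, the cells that shed platelets. A platelet carries adhesion receptors for von Willebrand factor, collagen and fibrinogen on its surface and stores chemokines and clotting proteins in alpha granules. Mouse stem cells are known to express some megakaryocyte genes already, such as that for von Willebrand factor.

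Depth was 21526796 and 20286700 recovered reads in MkP, and 16292228 and 16504804 in LT.HSC of set 1. In set 2 it was 12777738 and 19427966 in MkP, and 4992499 and 19340782 in LT.HSC. Across genes, replicates correlated at 0.967 in MkP and 0.934 in LT.HSC of set 1, and at 0.878 in MkP and 0.731 in LT.HSC of set 2. Over 14444 genes, the second LT.HSC library of set 2 correlated with LT.HSC of set 1 at 0.873 and 0.872, and with MkP of set 1 at 0.848 and 0.813. The first correlated with LT.HSC of set 1 at 0.754 and 0.764, and with MkP of set 1 at 0.764 and 0.753. This first library was also the shallowest. It therefore stood apart, and counts from set 2 are given with and without it. The MkP libraries of set 2 also differed. The first correlated with MkP of set 1 at 0.934 and 0.915, and with LT.HSC of set 1 at 0.810 and 0.806. For the second MkP library these values were 0.845 and 0.832, and 0.804 and 0.810. The first LT.HSC library of set 2 also had 5370.5 normalised counts of Mettl3, against 464 in the second and 486 and 604 in MkP. Mettl3 is the gene for the catalytic subunit of the m6A methyltransferase. The libraries labelled Mettl3 -/- had 501 and 455 Mettl3 counts in MkP and 663 and 871 in LT.HSC, so the gene count did not separate the genotypes. Which part of the gene was deleted was not part of the labels.

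The labelled identities were checked against marker genes. Of the defining LT.HSC markers, Procr, Hlf and Ly6a were lower in MkP in both sets. Itga2b, Pf4 and Cd9 were higher in MkP in both sets. In the first LT.HSC library of set 2, stem cell regulators summed to 0.166% of all values, against 0.368% in the second. MkP of that set had 0.268% and 0.259%. Stem cell surface genes summed to 0.124% and 0.474% in these LT.HSC libraries and 0.204% and 0.135% in MkP. Platelet surface genes were lower in both LT.HSC libraries (0.073% and 0.181%) than in MkP (0.609% and 0.326%). Whether the label of the first LT.HSC library of set 2 holds was not tested. In set 1, platelet surface genes summed to 0.261% and 0.285% in MkP and 0.170% and 0.168% in LT.HSC. Stem cell regulators summed to 0.171% and 0.118% in MkP and 0.368% and 0.436% in LT.HSC of set 1. Transcription factors of megakaryocytes were also lower in MkP of set 1 (0.278% and 0.200%) than in LT.HSC (0.400% and 0.432%). T cell markers made up at most 0.0075% of the summed values in MkP and at most 0.0118% in LT.HSC, over both sets. Granulocyte and mast cell genes differed between the sets and are described with their values further on. In bulk samples such as these, fewer cells of a type and less RNA per cell cannot be told apart.

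The first question was which genes differed between MkP and LT.HSC in each set, and which of them did so alike in both. Fold changes are log2 of MkP over LT.HSC on normalised counts plus 1, which understates changes of genes near 0. A gene was called at a limma adjusted p under 0.05 (Benjamini-Hochberg over all genes tested), with the spread estimated over all input libraries of its table. In set 1, 3428 of 17165 genes were higher in MkP (20.0%) and 5506 lower (32.1%). In set 2, 96 of 15030 genes were higher (0.639%) and 247 lower (1.64%). The count in set 2 moved with single libraries. It was 29 higher and 91 lower without the first LT.HSC library, 555 and 964 without the second, 73 and 408 without the first MkP library, and 21 and 41 without the second.

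Of the 14444 genes tested in both sets, 9396 (65.1%) had the same sign. Among genes called in set 1 this share was 71.0%, and among those called in set 2 it was 91.2%. The correlation of the fold changes across genes was 0.39, as a description, since genes are not independent replicates. It was 0.19 without the first MkP library of set 2 and 0.52 without the second. Leaving out the first or second LT.HSC library of set 2 gave 0.42 or 0.25. In all, 228 genes were called in both sets, 219 with the same sign (1.52% of the genes tested in both) and 9 with opposite signs. Of the 219, 62 were higher and 157 lower in MkP. Agreement in size was then asked for as an absolute fold change of at least 1 in both sets and fold changes no more than 1 apart. Under this rule 126 of the 219 genes were more than 1 apart, 100 of them with the greater size in set 2. Few genes were called in set 2, and choosing genes by that call can by itself give greater sizes there. Another limit, a fold change under 1, was met by 4 of the 219, some genes failing on both. The rule left 91 genes, 31 higher in MkP (0.215%) and 60 lower (0.415%), or 41 and 47 with TMM scaling. By edgeR 19 higher and 14 lower genes agreed. With the spread taken from the 4 libraries of each contrast alone, limma called 0 genes in set 2 (352 higher and 559 lower at an unadjusted p under 0.05), so 0 agreed. In each of the 91, MkP and LT.HSC libraries did not overlap in either set. The threshold itself makes this likely, so it is no support beyond the calls.

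**Figure D1:**
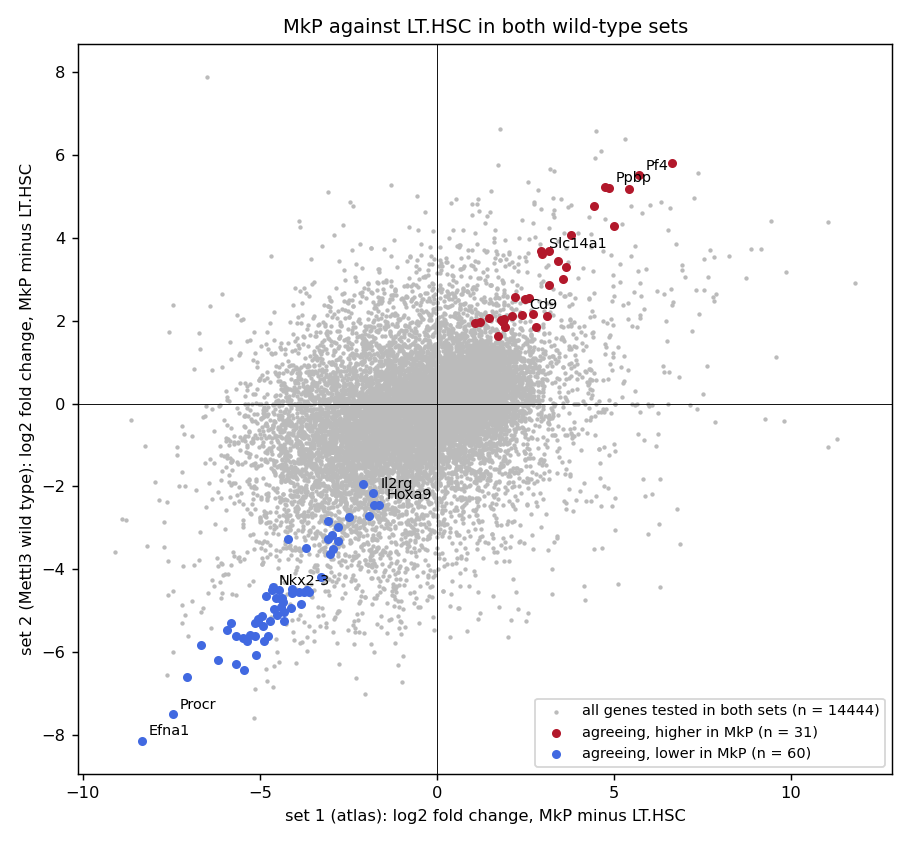
Log2 fold change of MkP over LT.HSC in set 1 (horizontal) and set 2 (vertical) for the 14444 genes tested in both, each a grey point. The 31 agreeing genes higher in MkP (red) and the 60 lower (blue) lie along the diagonal because the rule asks for it. Genes that differ in 1 set alone spread along either axis.

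The 31 genes higher in MkP had a median fold change of 2.95 in set 1 and 2.57 in set 2. The 60 lower genes had medians of −4.44 and −4.81, or −4.45 and −4.96 with genes at 0 reads in MkP set at a floor of 3 reads over the group. Over all genes tested the medians were −0.41 in set 1 and −0.14 in set 2, and TMM scaling moved them up by 0.16 and 0.14. Agreeing calls depended on set 2. Without its first LT.HSC library 10 higher and 18 lower genes agreed, without the second 102 and 68, without the first MkP library 11 and 34, and without the second MkP library 8 and 8. Only 7 of the 91 met the whole rule in every one of them: Adgrg3, Ckap2l and Slc14a1 among the higher genes, and Efna1, Procr, Cyp2j9 and Gprc5b among the lower.

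Promoter sequences of 4 leading agreeing genes, Pf4 and Ppbp higher in MkP and Procr and Efna1 lower, are shown because promoters are the stretches where lineage factors of the GATA and ETS families are known to bind in megakaryocytes. They come from RefSeq, assembly GRCm38.p6, and run from 250 bases before to 50 bases after the gene start, 5′ to 3′ on the strand of the gene. Capitals mark the words searched, each also as its reverse complement on the other strand. The words for GATA factors were AGATAA, with the variant AGATAG, then TGATAA, with the variant TGATAG. The word for ETS factors was GGAAG. No match of the 2 kinds overlapped in these windows.
Pf4 (chr5:90772185-90772484, plus strand): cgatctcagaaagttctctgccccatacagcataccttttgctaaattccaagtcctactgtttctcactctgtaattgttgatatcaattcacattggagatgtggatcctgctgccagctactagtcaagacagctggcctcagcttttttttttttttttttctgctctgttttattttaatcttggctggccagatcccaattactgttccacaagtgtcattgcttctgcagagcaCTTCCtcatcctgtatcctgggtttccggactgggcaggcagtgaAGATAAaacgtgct
Ppbp (chr5:90768268-90768567, plus strand): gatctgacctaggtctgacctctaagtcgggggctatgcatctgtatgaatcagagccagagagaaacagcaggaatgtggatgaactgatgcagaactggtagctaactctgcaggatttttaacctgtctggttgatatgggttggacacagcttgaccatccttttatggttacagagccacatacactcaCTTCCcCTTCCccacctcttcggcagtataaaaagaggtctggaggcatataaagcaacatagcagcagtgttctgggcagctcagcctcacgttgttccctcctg
Procr (chr2:155750967-155751266, plus strand): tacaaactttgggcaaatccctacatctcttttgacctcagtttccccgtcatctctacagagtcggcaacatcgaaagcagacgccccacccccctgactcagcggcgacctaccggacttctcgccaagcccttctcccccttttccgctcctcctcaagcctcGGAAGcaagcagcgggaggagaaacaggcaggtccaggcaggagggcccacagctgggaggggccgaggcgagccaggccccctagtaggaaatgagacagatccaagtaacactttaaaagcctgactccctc
Efna1 (chr3:89280902-89281201, minus strand): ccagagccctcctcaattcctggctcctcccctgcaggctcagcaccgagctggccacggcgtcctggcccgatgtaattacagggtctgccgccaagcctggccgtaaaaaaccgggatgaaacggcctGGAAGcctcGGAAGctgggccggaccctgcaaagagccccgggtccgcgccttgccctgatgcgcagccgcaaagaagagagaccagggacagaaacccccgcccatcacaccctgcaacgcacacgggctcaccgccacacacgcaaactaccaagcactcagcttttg
The window of Pf4 held 1 GATA word and 1 ETS word, that of Ppbp 0 and 2, that of Procr 0 and 1, and that of Efna1 0 and 2. Efna1 has 2 annotated starts, of which the first listed is shown. Of the 31 higher genes 25 had a window, and 4 of them (16.0%) held a GATA word and 19 (76.0%) the ETS word. Of the 60 lower genes 50 had one, with 12 (24.0%) and 40 (80.0%). Among all 27025 promoter windows the shares were 30.2% and 71.1%. A match is only a stretch of letters and shows no binding.

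Of the 75 genes on the 3 platelet lists, 5 were among the 31 genes higher in MkP (Cd9, Lat, Pf4, Ppbp and Tuba8). Of all 14444 genes tested in both sets, 0.215% were among the 31. After Serpina3b, described further on, Pf4 had the greatest fold changes of the 31 in both sets. Pf4 encodes platelet factor 4, a chemokine stored in alpha granules. Its normalised counts in set 1 were 16351 and 76286 in MkP, against 656 and 697 in LT.HSC. In set 2 they were 35563 and 25623 in MkP, against 1502 and 291 in LT.HSC. Both groups stayed apart in both sets, although the first LT.HSC library of set 2 was the higher of its pair by far. The fold change was 5.71 in set 1 (SE 0.75, limma adjusted p = 2.78e-06) and 5.51 in set 2 (SE 0.88, adjusted p = 0.00191).

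Ppbp, which encodes the granule chemokine precursor pro-platelet basic protein, had 887 and 2688 counts in MkP and 48.9 and 56.1 in LT.HSC of set 1. In set 2 it had 705 and 244 in MkP and 1.84 and 43.7 in LT.HSC. The lower MkP library lay above both LT.HSC libraries of its set. Fold changes were 4.86 (SE 1.76, limma adjusted p = 0.0262) and 5.21 (SE 1.24, adjusted p = 0.0255). Their errors were wide, and the call met the whole rule in 6 of 15 other settings.

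Stx11, the syntaxin that platelets need to release their granules, had 620.1 and 643 counts in MkP and 29.5 and 12 in LT.HSC of set 1. Set 2 gave 716 and 334 in MkP and 47.8 and 12 in LT.HSC. The groups lay far apart in both sets. The fold change was 4.99 in set 1 (limma adjusted p = 2e-09) and 4.28 in set 2 (adjusted p = 0.00151). Rgs10 codes for a GTPase accelerator that restrains G protein signals in platelets. It had 417 and 949.5 counts in MkP and 12.9 and 37.9 in LT.HSC of set 1, and 866 and 507 in MkP and 101 and 2.06 in LT.HSC of set 2. The LT.HSC libraries differed among themselves by a larger ratio than the MkP libraries did, and the groups did not overlap. Its fold changes of 4.76 and 5.23 were close in size (limma adjusted p = 2.52e-09 and 0.00953).

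Ache, the acetylcholinesterase gene long used to mark rodent megakaryocytes, had 681 and 730.3 counts in MkP and 38.3 and 66.4 in LT.HSC of set 1. In set 2 it had 637 and 369 in MkP and 58.8 and 13.1 in LT.HSC. The groups did not overlap. It rose by 3.78 in set 1 and 4.07 in set 2 (limma adjusted p = 0.00324 and 0.0379). Tuba8, an alpha tubulin isotype, had 4681 and 8166 counts in MkP and 886 and 271 in LT.HSC of set 1, and 4996 and 2439 in MkP and 366 and 341 in LT.HSC of set 2. In each set both MkP libraries lay far above both LT.HSC libraries. Its fold changes were 3.66 and 3.30 (limma adjusted p = 0.000676 and 0.00951).

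Slc14a1, a urea transporter gene, was among the steadiest, meeting the rule in 14 of 15 other settings. It had 3474 and 4019 counts in MkP and 521 and 439.6 in LT.HSC of set 1. Set 2 gave 5395 and 3673 in MkP and 288 and 456 in LT.HSC. No LT.HSC library came near an MkP library of its set. The fold changes were 2.96 (SE 0.32, limma adjusted p = 1.24e-07) and 3.61 (SE 0.43, adjusted p = 0.000138). Adgrg3, an adhesion G protein coupled receptor best known from granulocytes, also met the rule in 14 of 15. Its counts were 3552 and 3137 in MkP and 369 and 259 in LT.HSC of set 1, and 2674 and 1407 in MkP and 159.8 and 196 in LT.HSC of set 2. The groups were far apart in both sets. It rose by 3.43 and 3.45 (limma adjusted p = 1.03e-08 and 0.00284). Ckap2l, which encodes a protein of the mitotic spindle, had 2014 and 1094 counts in MkP and 236 and 249 in LT.HSC of set 1, and 3276 and 1999.9 in MkP and 408 and 472 in LT.HSC of set 2. The MkP libraries lay above all LT.HSC libraries, with fold changes of 2.61 and 2.54 (limma adjusted p = 5.67e-07 and 0.00215).

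**Figure D2:**
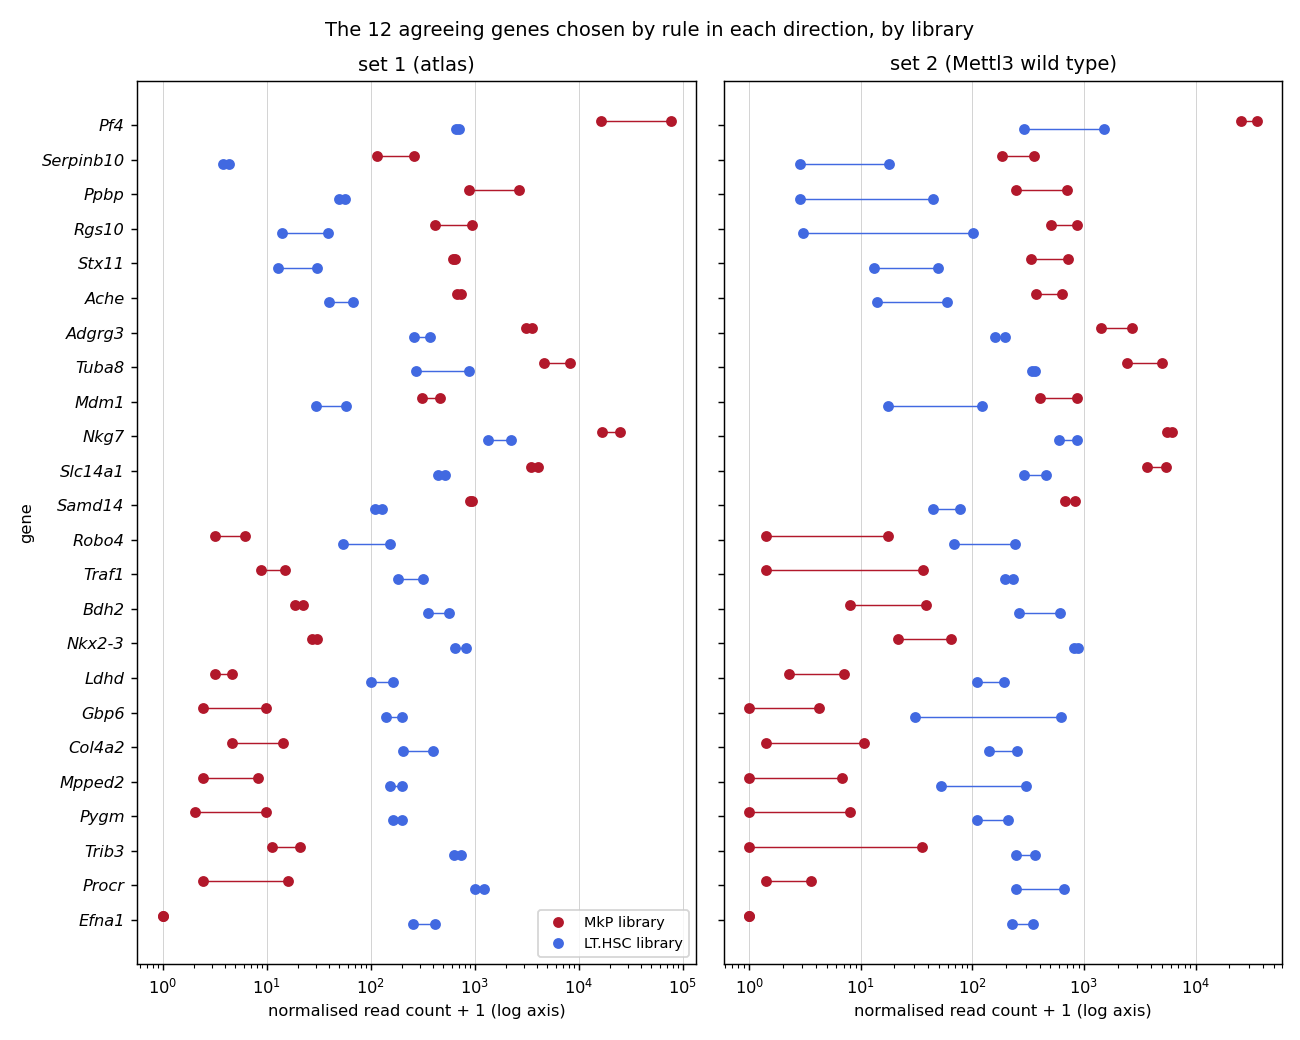
Normalised counts plus 1 on a log axis for the 12 genes named by rule in each direction, in set 1 (left) and set 2 (right), with 1 point per library and a line joining the 2 libraries of a group. MkP points (red, drawn above) lie right of the LT.HSC points (blue) for the upper 12 genes and left of them for the lower 12. Efna1 lies at 0 counts in all 4 MkP libraries.

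Other agreeing genes higher in MkP are known from varied settings. Cd9, the tetraspanin abundant on platelets, rose by 2.41 and 2.15. Ptgir, the receptor for prostacyclin, which keeps platelets quiet, rose by 4.45 and 4.78 on counts of at most 61 in MkP and 1.24 in LT.HSC. Mfsd2b, which exports sphingosine 1-phosphate from red cells and platelets, rose by 3.16 and 2.86. Lat, an adaptor of the collagen receptor pathway, rose by 1.07 and 1.94, and Lims1, an adaptor between integrins and the cytoskeleton, by 1.48 and 2.07. Spc24, a kinetochore subunit, rose by 1.81 and 2.02, and the spindle checkpoint gene Mad1l1 by 1.74 and 1.63. Nkg7, a granule membrane gene of cytotoxic lymphocytes, rose by 3.56 and 3.01. Samd14, known as a GATA2 target in erythroid precursors, rose by 2.95 and 3.69, and the microtubule binding gene Mdm1 by 3.18 and 3.67. Serpinb10, a serpin gene, rose by 5.42 and 5.17. Another serpin gene, Serpina3b, had 0 reads in all LT.HSC libraries and was at least 151-fold higher in MkP of set 1 and at least 79.3-fold higher in set 2, with 3 reads over the group taken as the floor. It has close copies in the mouse genome among which reads may have been split.

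Of 21 platelet surface glycoproteins and integrins tested in both, 11 rose (52.4%, against 20.0% of all genes) and 1 fell in set 1, and 5 rose (23.8%, against 0.639%) and 0 fell in set 2 (0 lower by edgeR and 0 at an unadjusted p under 0.05). Their medians were 2.00 and 2.29, against −0.41 and −0.14 over all genes. Cd9, F2rl2, Itga2b, P2ry1 and Treml1 were called in both sets, and Cd9 alone met the rule on size. Itga2b, the integrin subunit that pairs with Itgb3 in the fibrinogen receptor, had 6147 and 4793 counts in MkP and 1011 and 814 in LT.HSC of set 1. In set 2 it had 9030.5 and 5623 in MkP and 351 and 937 in LT.HSC. Fold changes of 2.58 and 3.63 put it a little past the limit of 1 (limma adjusted p = 0.000729 and 0.00215). P2ry1, the platelet ADP receptor, rose by 2.86 and 5.15, and F2rl2, the thrombin co-receptor of mouse platelets, by 5.60 and 3.79. The von Willebrand factor receptor gene Gp5 had fold changes of 2.93 and 2.92, nearly equal, but passed the test in set 1 alone (limma adjusted p = 0.00918 and 0.0727). Its difference between the sets was −0.01 (adjusted p = 0.999). The count of 11 in set 1 was 7 without its second MkP library, and the count of 5 in set 2 was 3 without the first MkP or the first LT.HSC library.

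Of 22 alpha granule genes, 9 rose (40.9%) and 4 fell in set 1 and 4 rose (18.2%) and 0 fell in set 2, with medians of 0.86 and 1.25. For the 0 lower, edgeR called 0 and limma gave 2 at an unadjusted p under 0.05. Pf4, Ppbp and Serpine2 were called in both. Serpine2, an inhibitor of thrombin, had 5905 and 5865 counts in MkP and 65.5 and 121 in LT.HSC of set 1, and 10769 and 3172 in MkP and 494 and 88 in LT.HSC of set 2. Fold changes were 6.03 and 4.80, more than 1 apart. Vwf, von Willebrand factor, was called in set 2 alone, by 3.07 (limma adjusted p = 0.0499), and had a fold change of 0.45 in set 1. The test of the difference between sets called 0 of the 22 genes, so Vwf was not shown to differ between them. Mmrn1, multimerin, which binds factor V in alpha granules, fell in set 1 (−4.26) and had a fold change of −0.81 in set 2, with no test passed for the difference (adjusted p = 0.199). The count in set 2 was 1 without either MkP library and 2 without the first LT.HSC library, and that of genes higher in set 1 was 5 without its second MkP library, that of genes lower 2 without either MkP library. Of 32 platelet cytoskeleton and signalling genes, 12 rose (37.5%) and 3 fell in set 1 and 2 rose in set 2 (6.25%), Lat and Tuba8. In set 2 this was 0 without the first MkP or the first LT.HSC library, 1 without the second MkP library and 6 without the second LT.HSC library. In set 1 the 3 lower genes became 1 without the second LT.HSC library.

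Genes lower in MkP were led by Efna1, the gene for ephrin-A1, a membrane-bound ligand of Eph receptors. It had 0 counts in both MkP libraries of set 1, against 410.4 and 253 in LT.HSC. Set 2 also gave 0 in both MkP libraries, against 347 and 225 in LT.HSC. With 3 reads over the group as the floor, it was at least 362-fold lower in MkP of set 1 and at least 329-fold lower in set 2 (limma adjusted p = 1.66e-08 and 0.000774). It met the rule in 14 of 15 other settings.

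Procr encodes the endothelial protein C receptor, a surface marker often used to sort LT.HSC. It had 14.9 and 1.46 counts in MkP and 1226 and 994 in LT.HSC of set 1. In set 2 it had 2.56 and 0.404 in MkP and 246 and 662 in LT.HSC. The gap between the groups exceeded the spread within either of them. Its fold change was −7.46 in set 1 (SE 1.03, limma adjusted p = 3.16e-06) and −7.50 in set 2 (SE 0.88, adjusted p = 0.000138).

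Nkx2-3, a homeobox transcription factor gene, had 29.3 and 26.2 counts in MkP and 820.0 and 647 in LT.HSC of set 1. In set 2 it had 20.5 and 63.4 in MkP and 804 and 880.2 in LT.HSC. MkP libraries were all low and LT.HSC libraries all high. Its fold changes were −4.67 and −4.50 (limma adjusted p = 2.62e-06 and 0.0209). Robo4, a Slit receptor family gene that takes part in the lodging of stem cells in marrow, had 5.15 and 2.18 counts in MkP and 53.5 and 154 in LT.HSC of set 1, and 16.7 and 0.404 in MkP and 68 and 240.3 in LT.HSC of set 2. Its fold changes were −4.38 and −4.70 (limma adjusted p = 0.000438 and 0.0165). Col4a2, a chain of basement membrane collagen, had 13.4 and 3.64 counts in MkP and 205 and 398 in LT.HSC of set 1, and 9.61 and 0.404 in MkP and 249.8 and 141 in LT.HSC of set 2. MkP libraries were near 0 throughout, with fold changes of −5.13 and −5.61 (limma adjusted p = 3.85e-05 and 0.0053).

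Further lower genes had varied roles. Pygm, the muscle form of glycogen phosphorylase, fell (−5.36 and −5.73). Ldhd, which oxidises D-lactate in mitochondria, fell (−5.06 and −5.19). Ldhb, the lactate dehydrogenase subunit of oxidative tissues, had 898 and 1019 counts in MkP and 3987 and 2673 in LT.HSC of set 1, and 274 and 473 in MkP and 1646 and 2310.2 in LT.HSC of set 2. Its fold changes were −1.77 and −2.44 (limma adjusted p = 0.000136 and 0.00463). Ldhb met the rule in 13 of 15 other settings. Trib3, a stress-induced pseudokinase gene, fell (−5.48 and −5.65), as did Bdh2, a cytosolic hydroxybutyrate dehydrogenase gene (−4.47 and −4.51). Cyp2j9, of the cytochrome P450 family, whose close copies could share reads, fell (−3.06 and −3.27).

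Il2rg, the common gamma chain of receptors for interleukins, had 1897 and 1327 counts in MkP and 6815 and 4523 in LT.HSC of set 1, and 862 and 887 in MkP and 3508 and 4379 in LT.HSC of set 2. The groups did not overlap, with fold changes of −1.81 and −2.16 (limma adjusted p = 0.00236 and 0.0119). Traf1, an adaptor of tumour necrosis factor receptors, fell (−4.40 and −4.90), as did the T cell factor gene Nfatc2 (−5.94 and −5.46). The interferon-induced GTPase genes Tgtp1 (−3.01 and −3.64) and Gbp6 (−5.10 and −6.07) also fell, and both have close copies that could share reads. Ecscr, a regulator of endothelial migration, had 0 and 3.64 counts in MkP and 179 and 136 in LT.HSC of set 1, and 0 in both MkP libraries and 33.1 and 154 in LT.HSC of set 2. The laminin receptor gene Bcam fell (−5.45 and −6.43). The Eph receptor gene Ephb4 had 0 counts in all 4 MkP libraries and was at least 21.4-fold lower in set 1 and at least 44-fold lower in set 2. Pik3ip1, an inhibitor of PI3 kinase, fell (−2.08 and −1.95), as did Itsn1, an endocytic scaffold (−3.69 and −3.47). None of the 60 lower genes was on the lists of endothelial and stromal markers or of interferon response genes. Of 12 endothelial and stromal markers, 5 fell in set 1 (41.7%, against 32.1% of all genes), or 3 without its second LT.HSC library. Of 10 in set 2, Emcn alone fell, a call lost without the second MkP library, and the medians were −1.75 and −0.03 (0.06 in set 2 with TMM scaling).

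Of 24 stem cell regulators, 13 fell (54.2%, against 32.1% of all genes) and 0 rose in set 1, and 4 fell (16.7%, against 1.64%) and 0 rose in set 2. Their medians were −1.84 in set 1 and −1.14 in set 2, and the test of the difference between sets called 2 of the 24. For the count of 0 higher, limma gave 0 genes at an unadjusted p under 0.05 in set 1 and 1 in set 2, and edgeR called 2 in set 1 and 0 in set 2. Hlf, Hoxa9 and Nkx2-3 were called in both. Hlf, a transcription factor that marks stem cells, had 43.2 and 32 counts in MkP and 1037 and 1295 in LT.HSC of set 1, and 58.3 and 66.3 in MkP and 601 and 1328 in LT.HSC of set 2. Its fold changes of −4.92 and −3.82 were just over 1 apart (limma adjusted p = 9.39e-05 and 0.009). Hoxa9, a homeobox gene of stem cell renewal, fell (−1.63 and −2.44). The count in set 2 was 0 without the second MkP library and 1 without the first LT.HSC library. Of 22 stem cell surface genes, 11 fell (50%, against 32.1% of all genes) and 1 rose in set 1. Of 20 tested in set 2, 5 fell (25%, against 1.64%). These were Fgd5, Ly6a, Procr, Robo4 and Sult1a1, all called lower in set 1 too. Cd48 rose in both sets. Vwf rose in set 2 as well, where edgeR called 0 higher. The 2 rises in set 2 became 0 when the first MkP, the second MkP or the first LT.HSC library was left out, and 1 without the second LT.HSC library. Ly6a, which encodes the stem cell antigen Sca-1, had 44.3 and 77.2 counts in MkP and 1319 and 759 in LT.HSC of set 1, and 2.56 and 43.2 in MkP and 522 and 617 in LT.HSC of set 2. Cd48, a surface protein absent from the most primitive stem cells, had 1847 and 2597 counts in MkP and 102 and 35.1 in LT.HSC of set 1, and 648 and 643 in MkP and 125 and 55.4 in LT.HSC of set 2. It rose by 5.17 and 2.94. The number of lower surface genes in set 2 was 3 without the second MkP or the second LT.HSC library.

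**Figure D3:**
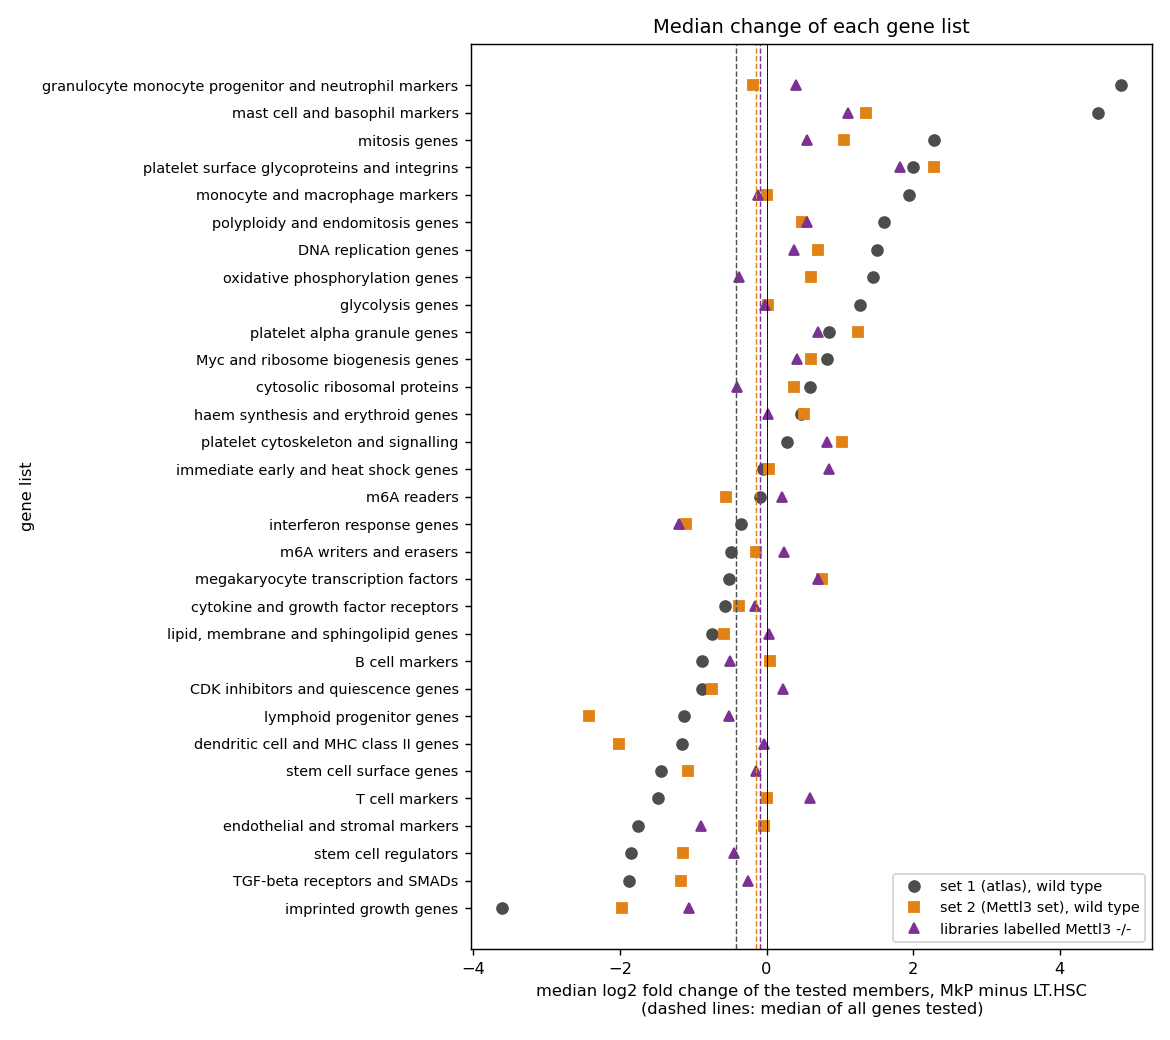
Median log2 fold change of MkP over LT.HSC for each gene list in set 1 (dark circles), set 2 (orange squares) and the libraries labelled Mettl3 -/- (purple triangles). Dashed lines mark the median of all genes tested in each. The platelet surface medians of 2.00 and 2.29 lie side by side, while the granulocyte medians of −0.18 in set 2 (0.01 with TMM scaling) and 4.84 in set 1 lie far apart.

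The atlas placed the agreeing genes among all 16 cell types. MkP had the highest mean for 9 of the 31 higher genes (29.0%), against 21.1% of the 3380 genes called higher in set 1 and tested in both sets. LT.HSC had the highest mean for 23 of the 60 lower genes (38.3%), against 24.7% of the 4657 called lower and tested in both. In 17 of these 23, ST.HSC, the short-term stem cell, came second. Pf4, Ppbp, Tuba8, Mdm1 and Slc14a1 peaked in MkP. Ache and Samd14 peaked in Erythroid cells, with MkP second. Stx11 was highest in Monocyte libraries, Serpinb10 in Neutrophil libraries, Rgs10 in CD4 libraries, and Adgrg3 and Nkg7 in GMP. Procr, Trib3 and Bdh2 were highest in ST.HSC, while Efna1, Pygm, Mpped2, Col4a2, Ldhd, Nkx2-3 and Robo4 peaked in LT.HSC. Traf1 was highest in DC and Gbp6 in CD8 libraries. Fold changes between neighbours in this order were not tested. These levels share the libraries of set 1 and are a description.

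**Figure D4:**
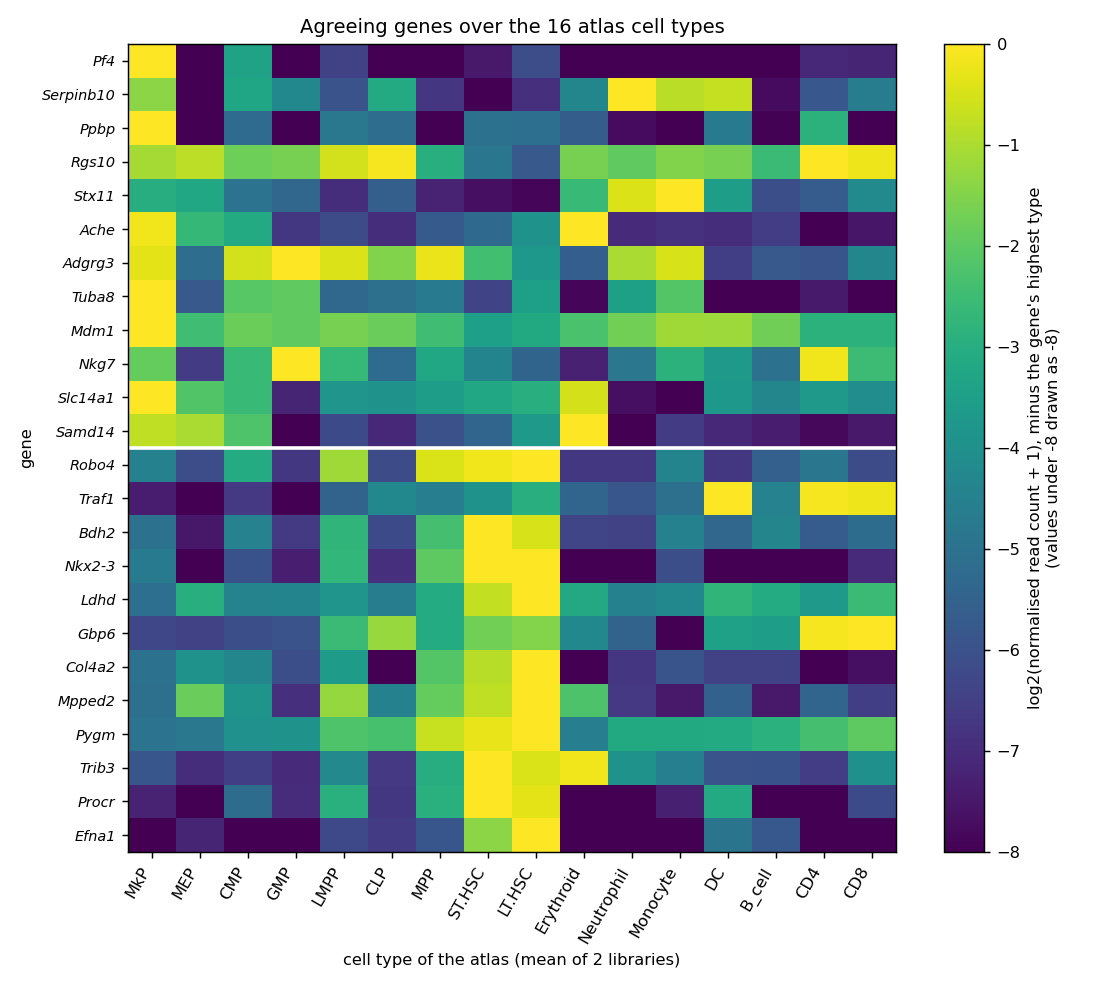
Level of the 12 higher (above the white line) and 12 lower (below it) named genes in the 16 cell types of the atlas, as log2 of the mean normalised count plus 1, minus the value of the gene's highest type. Yellow marks the highest type of each gene. Pf4, Ppbp, Tuba8, Mdm1 and Slc14a1 are yellow in MkP, and Efna1, Col4a2 and Mpped2 in LT.HSC, with values under −8 drawn as −8.

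In the libraries labelled Mettl3 -/- the fold changes of MkP over LT.HSC used none of the 8 wild-type samples. They are not independent of the choice of genes, because these libraries were part of the fit whose spread set the calls of set 2. There limma called 4 genes higher (0.0266%) and 10 lower (0.0665%) of 15030. Over the 14444 genes tested in both sets, MkP and LT.HSC libraries of this genotype correlated with each other at 0.887 to 0.938, close to their replicates at 0.940 and 0.919. In set 2 the same correlations were 0.759 to 0.874, against 0.877 for the MkP replicates and 0.782 for the LT.HSC replicates. In set 1 they were 0.761 to 0.786, below the replicates at 0.959 and 0.920. Of the 31 higher genes 29 had a positive sign (93.5%), against 52.2% of the 3380 genes called higher in set 1 and tested in both. Coq7 and Creld2 had the opposite sign. Of the 60 lower genes 56 had a negative sign (93.3%), against 61.8% of the 4657 called lower in set 1 and tested in both, and Agbl1, Akr1c19, Nfatc2 and Setbp1 had the opposite sign. The 91 genes also had to be called in set 2, while the genes set beside them needed a call in set 1 alone. These shares are therefore not like for like. Medians of the 31 and the 60 genes were 1.22 and −1.55. The 91 genes were chosen for their size in the wild-type sets, which by itself can give smaller values in other samples, so these medians are not set against those of the sets.

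Past the threshold in these libraries were Serpina3b, Slc14a1, Ldhb and Procr. Slc14a1 had 5078 and 2795 counts in MkP and 784 and 407 in LT.HSC, a rise of 2.74 (SE 0.43, limma adjusted p = 0.00678). Procr had 13.8 and 51.4 in MkP and 884 and 1364 in LT.HSC, a fold change of −5.30 (SE 0.88, adjusted p = 0.00994). Ldhb had 269 and 361 in MkP and 1079 and 2439 in LT.HSC, at −2.38 (adjusted p = 0.0293). Serpina3b had 74.9 and 50.5 in MkP and 0 in both LT.HSC libraries (adjusted p = 0.0124). Pf4 had 3137 and 909 counts in MkP and 336 and 330.5 in LT.HSC, with a fold change of 2.34 (adjusted p = 0.826). Efna1 was detected in MkP, at 26.6 and 51.4 counts, against 266 and 567 in LT.HSC (−3.36, adjusted p = 0.675).

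Lists of growth and division genes had many calls in set 1 and 0 in set 2, where few of all genes were called. Ckap2l, Spc24 and Mad1l1, which rose in both sets, are not on these lists. Of 38 DNA replication genes, 29 rose (76.3%, against 20.0% of all genes) and 1 fell in set 1 and 0 changed in set 2 by limma and by edgeR. In set 2, 7 of them were higher and 0 lower at an unadjusted p under 0.05. Their medians were 1.51 in set 1 and 0.71 in set 2. Of 33 mitosis genes, 25 rose (75.8%) in set 1 and 0 changed in set 2 by limma and by edgeR, with 12 higher at an unadjusted p under 0.05 and medians of 2.29 and 1.06. Without the second LT.HSC library of set 2, 3 replication genes and 1 mitosis gene rose there, and without its first MkP library 1 replication gene. Of 60 genes of oxidative phosphorylation, 50 rose (83.3%) in set 1, and 19 without its second MkP library or 33 without its second LT.HSC library. In set 2, 0 of the 60 changed by limma and by edgeR, with 6 higher at an unadjusted p under 0.05, and 1 rose and 1 fell without the second LT.HSC library. The medians were 1.46 in set 1 and 0.60 in set 2. The test of the difference between sets called 8 of the mitosis genes, 5 of the replication genes and 2 of the oxidative phosphorylation genes smaller in set 2 (24.2%, 13.2% and 3.33%, against 4.69% of all genes), so most were not shown to differ. Aurkb, a mitotic kinase gene, was one that did, with 2161 and 1483 counts in MkP and 1644 and 726 in LT.HSC of set 2, against 3806 and 2940.3 in MkP and 202 and 209 in LT.HSC of set 1 (difference −3.30, limma adjusted p = 0.00451). In the libraries labelled Mettl3 -/- the median of the oxidative phosphorylation genes was −0.37, with 0 of 60 called by limma and 0 at an unadjusted p under 0.05.

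Of 24 transcription factors of megakaryocytes, 3 rose (12.5%) and 7 fell (29.2%) in set 1, against 20.0% and 32.1% of all genes, while 0 changed in set 2 by limma and by edgeR, where 3 were higher and 2 lower at an unadjusted p under 0.05. Gata1, the master factor of megakaryocyte and erythroid cells, had 3265 and 3926 counts in MkP and 481 and 465 in LT.HSC of set 1, and 2488 and 1875 in MkP and 55.1 and 397 in LT.HSC of set 2. The groups did not overlap in either set, but the 2 LT.HSC libraries of set 2 differed widely. The fold change of 2.92 in set 1 passed the test (limma adjusted p = 6.27e-06) and that of 3.85 in set 2 missed it (adjusted p = 0.0572). Mef2c and Klf1 also rose in set 1 (1.04 and 2.85), and Erg (−3.23) and Etv6 (−1.72) fell. Etv6, an ETS family repressor, had a fold change of 0.05 in set 2, and the difference between sets passed its test (1.78, limma adjusted p = 0.016). Gata2 was not past the threshold in either set (1.28 and 1.21). Without the second LT.HSC library of set 2, 2 factors rose there.

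Fold changes were tested against each other in a joint fit, as set 2 minus set 1, in which 515 of 14444 genes were greater (3.57%) and 678 smaller (4.69%) in set 2. Every library of the 8 moved these counts. Without the first or second MkP library of set 2 they were 1150 and 1214, or 43 and 70. Leaving out its first or second LT.HSC library gave 161 and 201, or 1208 and 1319. Without the first or second MkP library of set 1 they were 287 and 339, or 132 and 277, and without its first or second LT.HSC library 232 and 443, or 160 and 280. Mpo, myeloperoxidase of neutrophil primary granules, had 32197 and 27726 counts in MkP and 11314 and 971 in LT.HSC of set 2. In set 1 it had 573183 and 442750 in MkP and 501 and 571 in LT.HSC. MkP stood far above LT.HSC in set 1, and the first LT.HSC library of set 2 was above the second. Fold changes were 3.17 in set 2 and 9.88 in set 1, and their difference −6.70 (SE 1.69, limma adjusted p = 0.015). The 22 markers of granulocyte monocyte progenitors and neutrophils summed to 0.605% and 0.566% of all values in MkP and 0.309% and 0.070% in LT.HSC of set 2. In set 1 they summed to 7.15% and 5.41% in MkP and 0.089% and 0.109% in LT.HSC. Of these 22, 0 rose and 1 fell in set 2, and 20 rose in set 1. The test of the difference called 6 of the 22 smaller in set 2 (27.3%, against 4.69% of all genes). Their median in set 2 was −0.18, or 2.37 without the first LT.HSC library and 1.46 without the second MkP library, against 4.84 in set 1. The 1 lower gene in set 2 was Gfi1 (adjusted p = 0.0474), a call that was lost without either MkP library or the first LT.HSC library. In set 2 limma gave 3 of the 22 higher at an unadjusted p under 0.05 and edgeR called 0.

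Of 14 mast cell and basophil genes tested, the test of the difference called 3 smaller in set 2 (21.4%). Prss34, a basophil protease gene, had 743 and 40.8 counts in MkP and 88.2 and 5.16 in LT.HSC of set 2, and 39548 and 62164 in MkP and 35.5 and 4.12 in LT.HSC of set 1. Cpa3, mast cell carboxypeptidase, rose in both sets, by 2.90 in set 2 and 5.73 in set 1, but the call in set 2 was lost without the second MkP or the first LT.HSC library. The 16 genes listed, tested or not, summed to 0.103% and 0.091% of all values in MkP and 0.039% and 0.078% in LT.HSC of set 2, and to 0.609% and 0.679% in MkP and 0.058% and 0.048% in LT.HSC of set 1. The mast cell protease genes Tpsb2 and Cma1 were at 0 in all 8 libraries. The part of such cells, or of shared expression in MkP, in these values was not tested. Adgrg3, an agreeing gene known from granulocytes, rose in both sets.

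**Figure D5:**
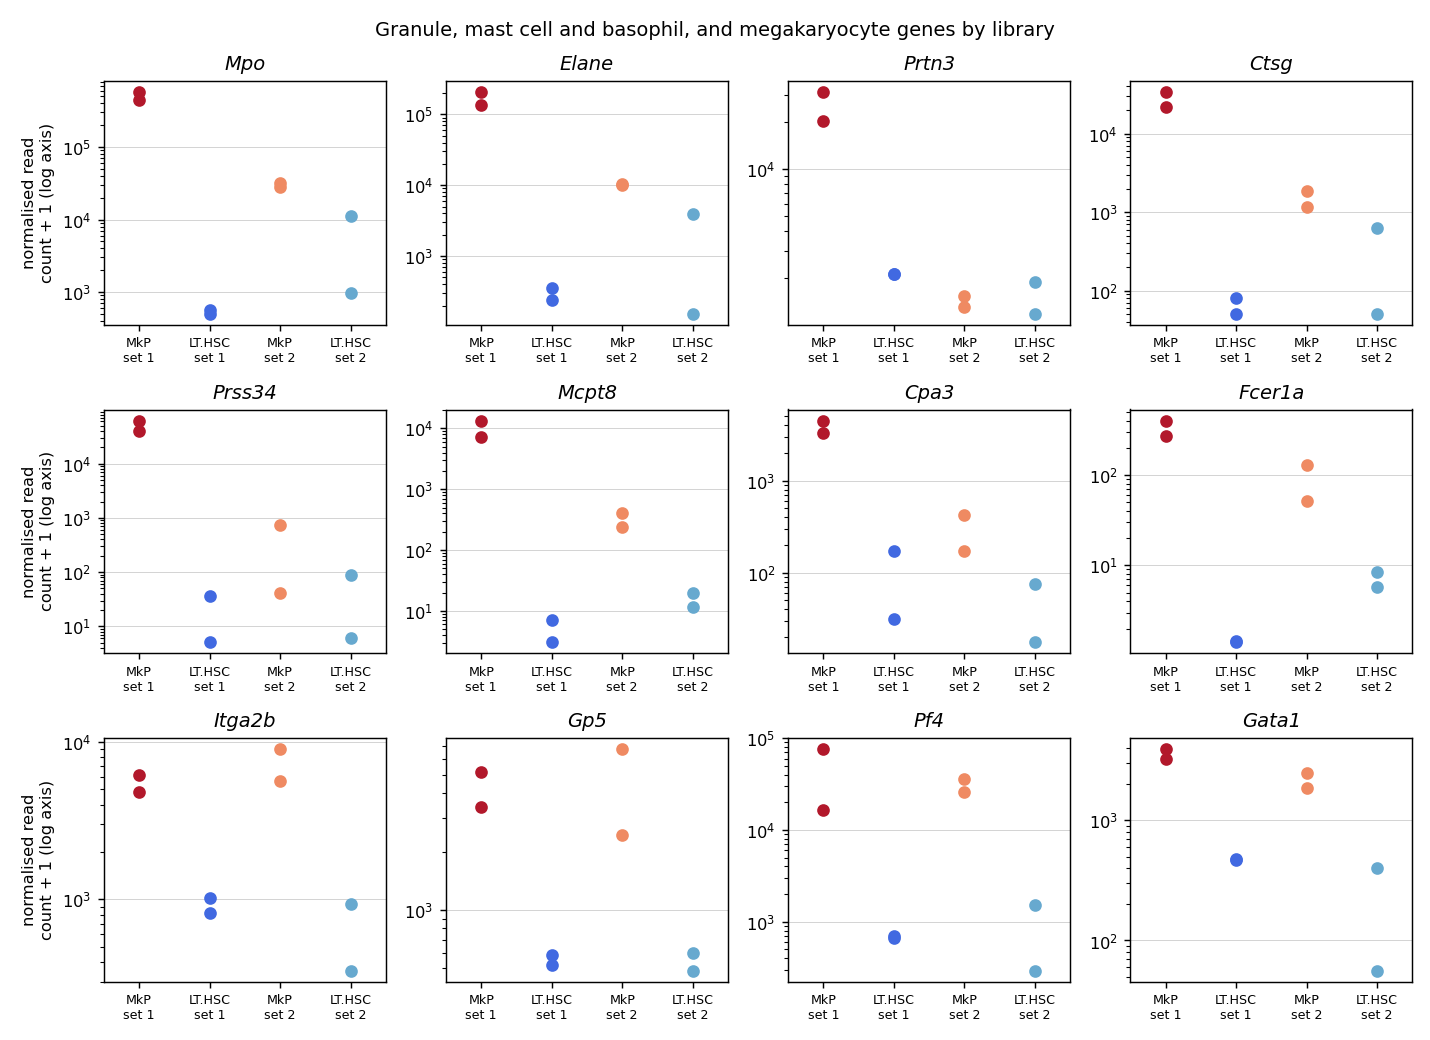
Normalised counts plus 1, on log axes with their own range in each panel, of 4 granulocyte, 4 mast cell and basophil, and 4 megakaryocyte genes in each library of set 1 and set 2. The tables were normalised separately, so heights compare within a set. The granule genes stand furthest above LT.HSC in set 1, while Itga2b, Gp5, Pf4 and Gata1 stand above LT.HSC in MkP of both sets.

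Mecom and Mn1 were among the genes with the greatest differences in the other direction. Mecom, a zinc finger factor needed by LT.HSC, had 54.5 and 755 counts in MkP and 441 and 528 in LT.HSC of set 2. In set 1 it had 6.69 and 10.2 in MkP and 1424 and 1557 in LT.HSC. The second MkP library of set 2 lay as high as LT.HSC. Its fold change was −1.24 in set 2 and −7.33 in set 1, a difference of 6.09 (SE 1.40, limma adjusted p = 0.00771). The leukaemia-associated coactivator gene Mn1 had 20.5 and 31.5 counts in MkP and 112 and 295 in LT.HSC of set 2, and 1.54 and 0 in MkP and 994 and 586 in LT.HSC of set 1 (difference 6.11, adjusted p = 0.0233).

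The limits of the rule left some genes out narrowly. Just inside the size limit lay Lat (1.07 in set 1 and 1.94 in set 2), Coq7 (1.23 and 1.96), Lims1, Hoxa9 and Mad1l1. Just outside lay Cd27 (−0.92 and −1.57), a receptor of the tumour necrosis factor family, and Slc10a3 (0.80 and 1.65). On distance, Rpn1 (3.12 and 2.12), a subunit of the oligosaccharyltransferase, and Bcam lay just inside. F10, coagulation factor X, lay just outside (3.71 and 4.75), with 511 and 707 counts in MkP and 59.5 and 34.2 in LT.HSC of set 1 and 829 and 297 in MkP and 9.18 and 32.3 in LT.HSC of set 2.

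There were 9 genes called in both sets with opposite signs. Itgb7, an integrin subunit of lymphocyte homing, had 609 and 1308 counts in MkP and 192 and 173 in LT.HSC of set 1, and 34.6 and 0 in MkP and 158 and 214 in LT.HSC of set 2. It was higher by 2.28 in set 1 (limma adjusted p = 9.98e-05) and lower in set 2 at −4.95 (adjusted p = 0.028). Anxa6, an annexin gene, and Lair1, an inhibitory collagen receptor, had the same pattern, at 1.28 and 0.76 in set 1 and −2.84 and −1.96 in set 2. Evi2a and Hdhd5 also were higher in set 1 and lower in set 2. Abcc5, a transporter gene, went the other way (−1.42 in set 1 and 1.92 in set 2), as did Gm20388, Slc25a41 and Dcdc2b, the last 3 of which had 0 counts in both LT.HSC libraries of set 2.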

How the data were processed

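Expression was read from tables of normalised counts per gene that the authors deposited, 36102 genes a table, treated as signal because the values are counts divided by a factor per library. Per the submitters' processing notes, kallisto, Trimmomatic and fastp were used with the build GRCm38, with no versions stated there. Dividing each library by its smallest step returned whole reads for 100% of values in these libraries (tolerance 0.1 read), which gave the depths and an edgeR count test as an alternative. That test called 4399 genes higher and 5337 lower in set 1, and 31 and 71 in set 2, with 19 and 14 agreeing.

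From the deposited signal, log2(value + 1) was fitted with limma 3.58.1 in R 4.3.3 (trend and robust moderation), with genes kept at a value of 10 or more in 2 libraries, a mean for each group, and the spread shared over 32 input libraries in 16 groups of set 1 or 28 in 14 groups of set 2. Differences between sets used 60 libraries in 30 groups. The tables were normalised separately, so levels are compared within a set. The named genes were the 12 agreeing genes in each direction with the greatest smaller fold change, a mean of 50 or more in both sets, no overlap and a settled gene name, members of 31 gene lists, 5 genes on either side of each limit, the 6 greatest differences between sets in each direction, and Mettl3, Igf2bp2, Myc and Bmi1. The 6 greatest differences in each direction were taken under the same conditions on mean and name. Members, lists and rule were chosen with earlier results of these data known. Alternatives were another pseudocount, no filter, TMM scaling, no robust moderation, the 4 libraries of a contrast alone, edgeR 4.0.16, a replicate block, other limits on agreement and each library left out. The procedures were tested on simulated data. Every group was given the same spread between replicates beyond counting, so a noisier group such as LT.HSC of set 2 was not covered. Tables of other assays in the series were not used here.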

Additional observations from a re-analysis of the deposited data

Results flagged for a closer look

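The fold changes of MkP over LT.HSC differed between the sets for the 12 genes below, the 6 with the greatest and the 6 with the smallest difference of set 2 minus set 1 past a limma adjusted p of 0.05 in the joint fit. The 12 passed through the test of the difference itself, and their causes were not tested. All 12 calls were lost when the spread came from the 8 libraries of the 2 contrasts alone, and single libraries moved them too.

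Of these, 6 had a greater fold change in set 2. Ankrd23 had 124 and 481 counts in MkP and 36.7 and 361 in LT.HSC of set 2, and 35.5 and 16.7 in MkP and 1484 and 1384 in LT.HSC of set 1, a difference of 6.88 (adjusted p = 0.0183). Saa3, an acute phase protein gene, differed by 6.65 (adjusted p = 0.00251), with 334 and 2856 counts in MkP and 676 and 95.2 in LT.HSC of set 2 against 55.6 and 44.4 in MkP and 1133 and 1563 in LT.HSC of set 1. The difference was 6.11 for Mn1 and 6.09 for Mecom, whose values stand in the report. Zfp532 differed by 5.97 (adjusted p = 0.0251) and had 2.56 and 43.6 counts in MkP of set 2 and 0 in MkP of set 1. Bend4 differed by 5.86 (adjusted p = 0.0393), with 113 and 199 counts in MkP and 5.51 and 466 in LT.HSC of set 2, and 21.6 and 9.47 in MkP and 376 and 282 in LT.HSC of set 1.

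The other 6 had a smaller fold change in set 2. Chil3, a chitinase-like gene of myeloid cells, differed by −9.10 (adjusted p = 0.0182), with 196 and 0 counts in MkP and 652 and 22.3 in LT.HSC of set 2, and 3039.8 and 4909 in MkP and 19.4 and 188 in LT.HSC of set 1. Prss34 differed by −8.91 (adjusted p = 0.0454). Fcnb, ficolin of neutrophils, differed by −8.29 (adjusted p = 0.0461), with 151 and 0.808 counts in MkP of set 2 and 2383 and 2561 in MkP of set 1. Itgb7 differed by −7.24 and had opposite signs in the sets. Id1, an inhibitor of basic helix-loop-helix factors, differed by −7.23 (adjusted p = 0.019), with 33.3 and 0 counts in MkP and 116 and 72.2 in LT.HSC of set 2, and 88 and 164 in MkP and 23.1 and 5.77 in LT.HSC of set 1. Mpo differed by −6.70.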

How the results depend on the processing

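In set 1 every alternative run kept both counts within 1.5 times (2477 to 2951 higher and 3975 to 4822 lower with 1 library left out). In set 2 the counts of 96 higher and 247 lower were 31 and 71 by edgeR, 0 and 0 when the spread came from the 4 libraries alone (352 and 559 at an unadjusted p under 0.05), and 21 to 555 and 41 to 964 with 1 library left out. The 31 higher and 60 lower agreeing genes became 56 and 147 with a pseudocount of 10, 0 and 0 with the 4 libraries of each contrast alone, 19 and 14 by edgeR, 20 and 35 at most 0.5 apart, and 61 and 154 with no limit on the distance. They were 8 to 102 and 8 to 68 with 1 library left out, and 10 and 18 without the library that stood apart. The counts for the difference between sets, 515 greater and 678 smaller, were 941 greater with a pseudocount of 10, 1 and 3 with the 8 libraries alone, and 43 to 1208 and 70 to 1319 with 1 library left out. Of the values followed for named genes, 2042 stayed on their side of the threshold, 455 lost a call, 1 gained one, 17 uncalled ones changed sign and 0 called ones did. Most of the lost calls were in set 2. There 57 values lost a call by edgeR and 47 stayed on their side, and with the 4 libraries alone 90 lost it and 15 stayed. In set 1, 107 stayed by edgeR and 104 with the 4 libraries alone. The replicate numbers were not shown to pair samples (correlation of deviations 0.01 in set 1 and 0.08 in set 2, 2 pairs each). With the replicate block 51 higher and 81 lower genes agreed, and 141 and 335 were called in set 2. With 2 libraries a group, and 4992499 reads in 1 of them, genes that missed the threshold in set 2 are not shown to be alike in both cells.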

Other observations

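Further gene lists are read against all genes tested, of which 20.0% rose and 32.1% fell in set 1, and 0.639% rose and 1.64% fell in set 2. Of 20 receptors and SMADs of TGF-beta signalling, which keeps stem cells resting, 12 fell and 1 rose in set 1, and of 19 tested in set 2, 1 fell (Acvr2a, limma adjusted p = 0.0375), with medians of −1.87 and −1.16 and 0 called by the test of the difference. Acvr2a had 17.3 and 0 counts in MkP and 683 and 35.8 in LT.HSC of set 2, and its call was lost without the second MkP library or the first LT.HSC library, while 2 genes of the list fell without either of the others. Of the imprinted growth genes, 6 of 11 fell in set 1 (54.5%), with 0 called in set 2 by limma or edgeR and 6 lower there at an unadjusted p under 0.05. Cdkn1c, the cell cycle inhibitor p57, had 39.1 and 27.7 counts in MkP and 357 and 1164 in LT.HSC of set 1, and 13.5 and 0 in MkP and 158 and 145 in LT.HSC of set 2. Its fold changes were −4.25 (limma adjusted p = 0.00044) and −5.32 (adjusted p = 0.0591).

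Of 11 lymphoid progenitor genes, 3 fell in set 2 (Cd27, Lsp1 and Sox4), all called lower in set 1, and the count was 1 without the second MkP or the first LT.HSC library. Lsp1, an actin binding gene of leukocytes, had 598 and 1754 counts in MkP and 3313 and 2579 in LT.HSC of set 1, and 103 and 60.6 in MkP and 1243 and 1643 in LT.HSC of set 2. Of 34 interferon response genes, 3 rose (8.82%) and 10 fell (29.4%) in set 1, both shares under those of all genes, and 3 fell in set 2 (8.82%), or 1 without the second MkP library. Iigp1, an interferon-induced GTPase gene, fell in both sets (−3.57 and −4.64). Emcn, the sialomucin endomucin found on stem cells and endothelium, fell (−3.88 and −5.77).

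The m6A machinery was described because the series is about this mark. Of 11 writers and erasers, 1 rose (9.09%) and 4 fell (36.4%) in set 1, and of 14 readers 6 rose (42.9%) and 5 fell (35.7%). The shares lower were near that of all genes. Without the second LT.HSC library of set 1, 2 writers fell, and without its first MkP library or either LT.HSC library 3 readers rose, while 3 fell without its second MkP library. In set 2, 0 changed in either list by limma or edgeR, with 1 of each list lower at an unadjusted p under 0.05. The median of the writers in set 2 was −0.14, or 0.04 with TMM scaling, and that of the readers in set 1 was −0.09, or 0.08. Elavl1, an RNA binding protein gene, had 2254 and 1261 counts in MkP and 1477 and 1427 in LT.HSC of set 2, and 2639 and 1652 in MkP and 347 and 362 in LT.HSC of set 1 (difference −2.34, limma adjusted p = 0.0162). Igf2bp2, a reader gene, had fold changes of 0.08 in set 2 and 1.60 in set 1 (adjusted p = 0.994 and 0.0395). Myc, a transcription factor gene of cell growth, had −0.07 in set 2 and 1.47 in set 1 (limma adjusted p = 0.974 and 0.00499). For Igf2bp2 and Myc, a call in set 1 alone does not show a difference between the sets. Bmi1, a Polycomb gene, had −1.64 in set 2 and −0.35 in set 1, with neither past the threshold.

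Of 23 glycolysis genes, 12 rose (52.2%) and 6 fell (26.1%) in set 1, and in set 2 Ldhb alone was called. The test of the difference called 2 of them. Gpi1, the enzyme after hexokinase, had 2623 and 2126 counts in MkP and 2189 and 2166 in LT.HSC of set 2, and 11578 and 10994 in MkP and 2605 and 2664 in LT.HSC of set 1 (difference −1.98, limma adjusted p = 0.021). Of 28 Myc and ribosome biogenesis genes, 15 rose (53.6%) and 4 fell (14.3%) in set 1, with 1 lower without its second MkP or second LT.HSC library. Of 32 haem synthesis and erythroid genes, 12 rose (37.5%) and 8 fell (25.0%) there, with 3 lower without its first MkP library and 5 without its first LT.HSC library.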
